A study of Mus musculus with 10 samples.

Results

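The genes described here are those that make, break down, carry and sense retinoic acid: the retinal dehydrogenases Aldh1a1, Aldh1a2 and Aldh1a3, the hydroxylase Cyp26b1, the binding proteins Crabp1 and Crabp2, and the receptors Rara, Rarb and Rarg. All probe sets that the platform annotation assigns to these symbols were taken, which gave 12 probe sets for 9 genes among 45101 probe sets and 18194 genes with a probe set of their own. Of the 9 genes, 8 had a probe set above the filter on low signal and were tested among 11357 genes. The filter asked that the third-highest of the 10 values of a probe set lie above the median of the whole table, 7.15 on the log2 scale. Rara did not pass it and is described by its values alone. The set was put together with results in view, and Aldh1a3 was chosen by its higher signal with active β-catenin. Its values in comparisons with those arrays are therefore a description, with no test.

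Gene expression was measured on 10 Affymetrix arrays of total RNA labelled as osteoblasts, from mice 2 to 3 days old on the background recorded as C5BL6. The groups were 3 samples with β-catenin constitutively expressed in osteoblasts (active β-catenin), 3 samples with FoxO1 deleted in osteoblasts, and 4 wild-type samples. The labels give neither the promoter behind the osteoblast-specific change nor the allele, and record the sex as indeterminate. Nor do they say if a sample came from 1 animal, pooled animals or cultured cells. The p-values therefore rest on differences between samples that could be technical. Values are log2 MAS5 signal, and a gene passed the test at a Benjamini-Hochberg adjusted p under 0.05 over all tested genes in a limma fit of genotype to the 10 arrays.

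Retinoic acid is the active form of vitamin A. Retinol is oxidised to retinal, and the ALDH1A enzymes oxidise retinal to retinoic acid, which CRABP proteins carry in the cell, RAR receptors bind together with RXR partners on DNA, and CYP26 enzymes remove. In the skeleton, retinoic acid is known to act on cartilage and bone formation, and an excess or a lack of it disturbs both.

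Promoter windows from RefSeq, assembly GRCm38.p6, reaching from 250 bases before to 50 bases after the annotated start, were found for 7 of the 9 genes, all but Aldh1a3 and Crabp2. Both windows below run 5′ to 3′ on the strand of the gene. The Rarb window, chr14:16575427-16575726 on the minus strand, is shown because Rarb is a textbook target of its own receptor family. Its capitals mark a direct repeat of retinoid half-sites with 5 bases between them. The Crabp1 window, chr9:54764498-54764797 on the plus strand, is shown because Crabp1 had the largest difference of any of the 8 genes tested. Its capitals mark 5 GC boxes, which read GGGCGG on one of the strands.
Rarb: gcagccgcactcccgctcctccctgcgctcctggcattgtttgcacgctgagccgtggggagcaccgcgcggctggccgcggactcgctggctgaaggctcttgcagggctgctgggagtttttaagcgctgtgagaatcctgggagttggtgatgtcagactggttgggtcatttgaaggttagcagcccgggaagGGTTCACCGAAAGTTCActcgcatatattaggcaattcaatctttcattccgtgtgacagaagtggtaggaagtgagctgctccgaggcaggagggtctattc
Crabp1: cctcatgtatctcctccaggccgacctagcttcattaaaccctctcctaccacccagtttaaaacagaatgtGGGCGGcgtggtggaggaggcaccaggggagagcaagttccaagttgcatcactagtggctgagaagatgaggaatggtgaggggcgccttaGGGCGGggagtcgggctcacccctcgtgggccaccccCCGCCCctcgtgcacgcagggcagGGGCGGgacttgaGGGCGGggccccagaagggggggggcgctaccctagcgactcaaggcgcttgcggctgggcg

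The repeat, known as DR5, was searched on both strands as a pair of half-sites, AGGTCA or 3 close forms of it, with any 5 bases between them. It stood in 0.0974% of 32851 windows of all annotated genes, and Rarb was the only one of the 7 genes with it. The same half-sites 2 bases apart stood in 0.268% of windows and in none of the 12 windows of these genes. GC boxes stood in 35.7% of all windows and in 6 of the 12 windows of these genes, which belong to Crabp1, Cyp26b1, Rara and Rarg. The TCF/LEF motif CTTTGAT, in 3.73% of windows, and the FoxO motif TGTTTAC, in 3.65%, were searched on both strands and are not in the 12 windows. A match of letters describes the window and is no measurement of binding.

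The arrays also differed in ways other than genotype. The 3 active β-catenin arrays, FoxO1 deleted 1 and wild type 1 and 2 had Xist signals of 5.91 to 8.96, and the other 4 arrays had 14.05 to 14.43 (log2). No active β-catenin array had high Xist signal, so genotype and Xist signal cannot be fully told apart in its comparisons. Wild type 1 with 2, and 3 with 4, correlated at 0.948 and 0.946 over all probe sets, against 0.938 to 0.941 for the other wild-type pairs. Osteoblast markers averaged 13.72 to 13.99 with active β-catenin, 13.75 to 13.88 with FoxO1 deleted and 13.66 to 13.85 in wild type, over the 5 of 8 listed genes with a probe set of their own. Ctnnb1 averaged 14.45 with active β-catenin and 14.48 in wild type, and Foxo1 averaged 9.87 with FoxO1 deleted and 10.04 in wild type. The altered part of either gene is not given, so these probe sets check nothing. Of 11 lists of cell type markers, the list of fibroblasts and smooth muscle was the only one with genes that passed the test against wild type. Thy1 and S100a4 were higher with active β-catenin (adjusted p = 0.0368 and 0.0384 in limma), 2 of its 8 genes, beside 0.599% of all genes called higher. Of the 8, 7 had a positive difference and Pdgfra a negative one (-0.08). The 3′ minus 5′ difference of the Actb control probe sets, a sign of RNA quality, was 0.85 to 0.88 with active β-catenin, 0.80 to 0.99 with FoxO1 deleted and 0.60 to 0.77 in wild type, and its part in the results was not tested. Array medians lay between 7.02 and 7.22.

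Aldh1a3 stood higher with active β-catenin than in either other group. Of the other 2 retinal dehydrogenases, Aldh1a1 also had a higher mean with active β-catenin than in wild type, 7.59 against 7.11. Aldh1a2 had a lower one, 8.24 against 8.73. Neither of these 2 passed the test in any comparison. On its brightest probe set, 1448789_at, the log2 signal of Aldh1a3 was 9.44, 9.22 and 9.52 with active β-catenin, 8.50, 8.31 and 9.05 in FoxO1 deleted arrays, and 8.16, 8.07, 8.34 and 8.45 in wild type. All 3 active β-catenin arrays were above the highest array of both other groups, and FoxO1 deleted overlapped wild type. The means were 9.39 ± 0.16 with active β-catenin, 8.62 ± 0.38 with FoxO1 deleted and 8.26 ± 0.17 in wild type (SD, n = 3, 3 and 4). The log2 difference was 1.14, or 2.20-fold, for active β-catenin against wild type and 0.77, or 1.71-fold, for active β-catenin against FoxO1 deleted. With 1 array left out at a time the first of these ran from 1.08 to 1.23. Within the 6 arrays of low Xist signal it was 1.28. Aldh1a3 was chosen on this contrast, so these values describe it and lend it no support.

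FoxO1 deleted and wild type are neighbours in that order, and their difference in Aldh1a3 did not pass the test. It was 0.37 ± 0.18 (SE, log2, 95% interval -0.02 to 0.75), with an adjusted p of 0.651 in limma. Array FoxO1 deleted 3, at 9.05, lay above the other FoxO1 deleted arrays, and the difference was 0.15 without it (adjusted p = 0.869). Over the 10 fits that left out 1 array each, 0.52 without FoxO1 deleted 2 was the highest value.

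The gene has 3 probe sets, and they did not all show the same pattern. Probe set 1427395_a_at read 7.27, 7.42 and 7.39 with active β-catenin, 6.70, 4.40 and 5.56 in FoxO1 deleted arrays, and 5.53, 6.73, 5.50 and 5.58 in wild type. Again the active β-catenin arrays were the highest, but this probe set passed the filter through those 3 arrays alone. FoxO1 deleted minus wild type was -0.28 here, with overlap, against 0.37 on the brightest probe set. The third, 1417642_at, read 6.58, 6.77 and 5.48 with active β-catenin, 6.28, 7.17 and 6.31 in FoxO1 deleted arrays, and 5.55, 5.74, 6.32 and 7.06 in wild type. Its groups overlapped throughout, and 1 of its 10 values exceeded the table's median of 7.15. Below that median MAS5 signal is imprecise.

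**Figure D1:**
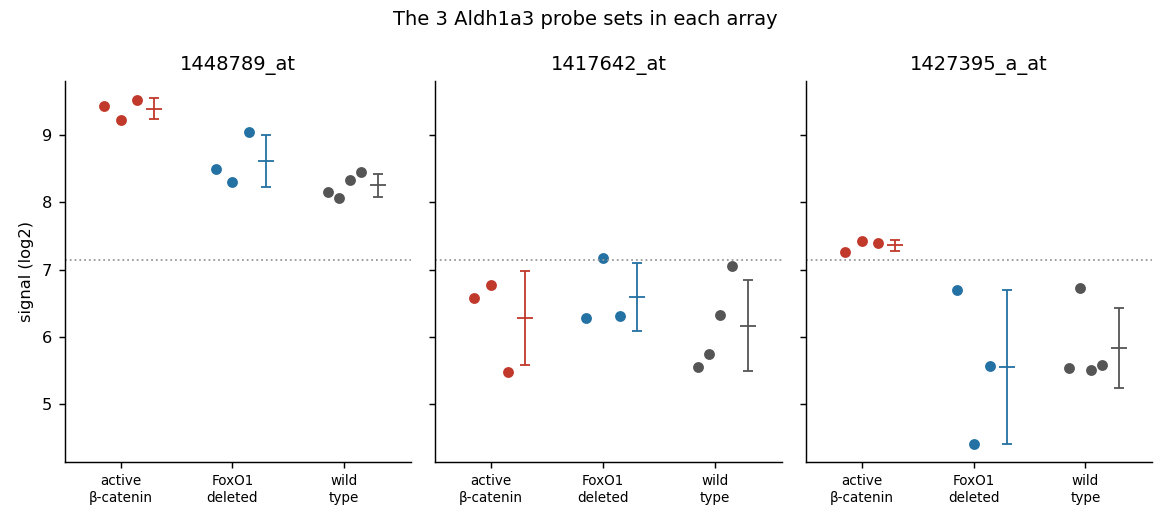
Log2 signal of the 3 Aldh1a3 probe sets in each array of active β-catenin, FoxO1 deleted and wild type (dots), with the mean ± SD of each group beside them and the table's median of 7.15 as a dotted line. Active β-catenin lies above both other groups in 1448789_at and 1427395_a_at, and all groups overlap in 1417642_at.

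Markers of several other cell types also lay apart from wild type in the active β-catenin arrays. The averaged signal of 8 of 8 fibroblast and smooth muscle markers, centred on the mean of all arrays, was 0.13 to 0.30 with active β-catenin, -0.11 to 0.02 with FoxO1 deleted and -0.20 to -0.04 in wild type. For 6 of 6 endothelial markers it was 0.18 to 0.24 with active β-catenin, -0.11 to 0.02 with FoxO1 deleted and -0.18 to -0.07 in wild type. For 4 of 4 erythroid markers it was -1.71 to -0.57 with active β-catenin, -1.06 to 1.099 with FoxO1 deleted and 0.35 to 1.53 in wild type. For 8 of 8 chondrocyte markers it was -0.05 to 0.32 with active β-catenin, -0.14 to 1.297 with FoxO1 deleted and -0.78 to -0.21 in wild type. For 6 of 6 skeletal muscle markers the groups overlapped and the spread lay within them. It was -0.84 to 0.71 with active β-catenin, -0.54 to 0.68 with FoxO1 deleted and -0.69 to 0.53 in wild type. Within active β-catenin these markers ranked the arrays as Aldh1a2 and Crabp1 did, but not within the other groups. Uncentred, they averaged 11.30 to 12.84 over the arrays, and 5 of 6 osteoclast markers averaged 11.55 to 12.87. The part of these lists in the Aldh1a3, Aldh1a2 and Crabp1 values was not tested. In bulk RNA, a change in the number of cells of a type and a change in RNA per cell cannot be told apart.

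The 5 genes whose signal followed that of Aldh1a3 most closely over the 10 arrays were Htra1, Anxa7, Prelp, Plxdc2 and Fam20a, with Pearson r of 0.962, 0.956, 0.939, 0.934 and 0.930. All 5 had their highest mean with active β-catenin, so the coefficients hold differences between genotypes as well as within them. The 5 are the top of all tested genes ranked by r with a gene chosen for its rise with active β-catenin. The size of r and the highest mean in that group therefore follow from the choice. Prelp, a proteoglycan of the extracellular matrix, averaged 10.31 ± 0.05 with active β-catenin, 9.65 ± 0.06 with FoxO1 deleted and 9.43 ± 0.12 in wild type (SD). Htra1, a secreted serine protease, averaged 13.48 ± 0.01 with active β-catenin, 13.08 ± 0.15 with FoxO1 deleted and 12.93 ± 0.17 in wild type.

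Aldh1a1, an ALDH1A enzyme well known from eye, liver and stem cells, read 7.78, 7.42 and 7.57 with active β-catenin, 7.83, 7.15 and 8.03 in FoxO1 deleted arrays, and 6.80, 6.86, 7.34 and 7.45 in wild type. Both altered genotypes overlapped wild type, in which arrays 1 and 2 were the lowest of all 10. The difference was 0.48 ± 0.25 for active β-catenin against wild type (SE, log2, 95% interval -0.08 to 1.03, adjusted p = 0.503). It was 0.56 ± 0.25 for FoxO1 deleted against wild type (adjusted p = 0.637, unadjusted p = 0.0496). Among arrays of low Xist signal these differences were 0.76 and 1.00. Both are against wild type 1 and 2, and the second rests on 1 FoxO1 deleted array. Between FoxO1 deleted and wild-type arrays of high Xist signal the difference was 0.20. Only 7 of its 10 values exceeded the table's median.

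Aldh1a2, the ALDH1A enzyme that makes most of the retinoic acid of the early mouse embryo, ran the other way. It read 7.80, 8.86 and 8.07 with active β-catenin, 8.45, 8.62 and 8.42 in FoxO1 deleted arrays, and 8.74, 8.83, 8.52 and 8.81 in wild type. Arrays active β-catenin 1 and 3 were the lowest of the 10, while active β-catenin 2 was the highest. The difference was -0.48 ± 0.21 for active β-catenin against wild type (SE, log2, 95% interval -0.95 to -0.01, adjusted p = 0.396). Leaving out 1 array at a time moved it between -0.79 without active β-catenin 2 (adjusted p = 0.0524) and -0.26 without active β-catenin 1 (adjusted p = 0.681). FoxO1 deleted differed from wild type by -0.23 (adjusted p = 0.820).

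**Figure D2:**
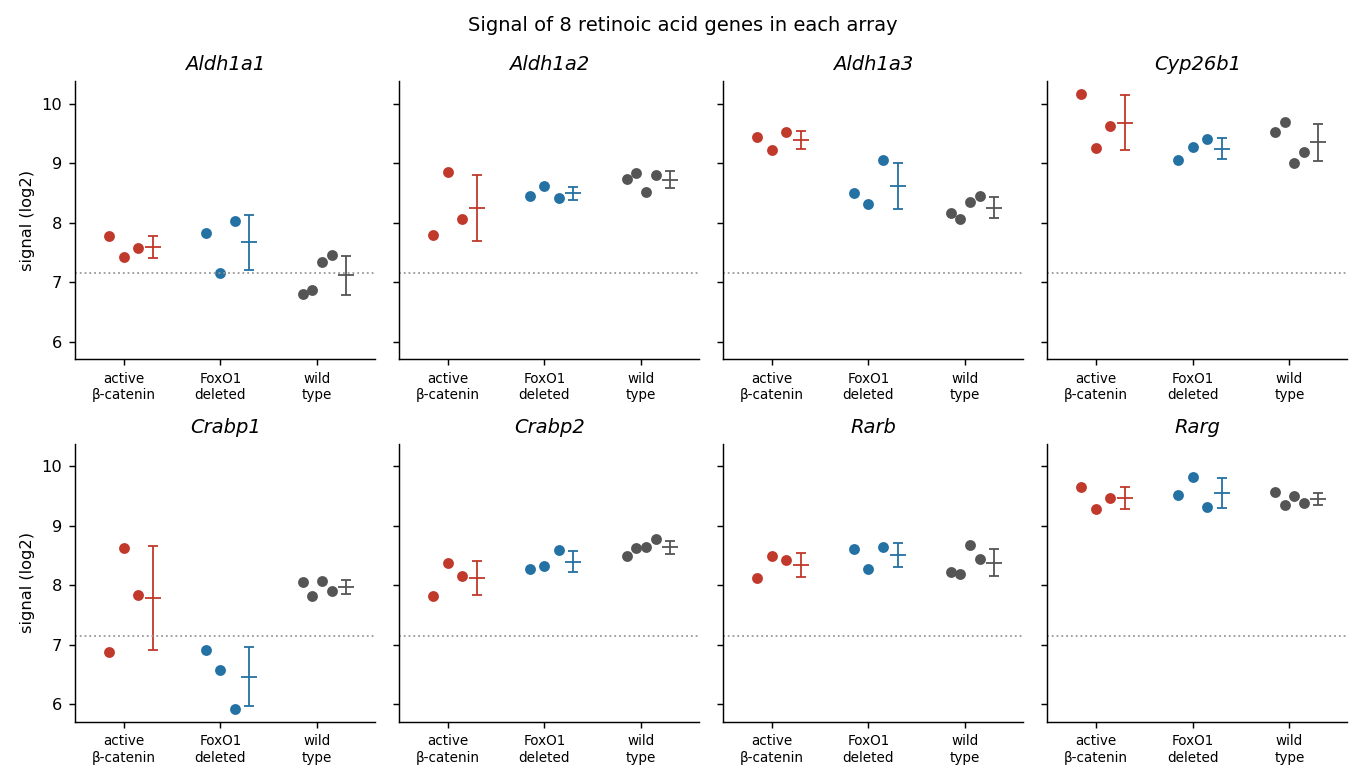
Log2 signal of the 8 tested genes in each array of active β-catenin, FoxO1 deleted and wild type (dots), with mean ± SD beside them and the table's median of 7.15 as a dotted line. Active β-catenin lies above wild type in Aldh1a3 and just below it in Crabp2, and FoxO1 deleted lies below wild type in Crabp1.

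Cyp26b1 encodes the enzyme that clears retinoic acid in developing limb, skeleton and gonad. It read 10.17, 9.25 and 9.62 with active β-catenin, 9.06, 9.28 and 9.40 in FoxO1 deleted arrays, and 9.52, 9.69, 9.01 and 9.19 in wild type. The highest array was active β-catenin 1, and all groups overlapped. The difference was 0.33 ± 0.22 for active β-catenin against wild type (SE, log2, 95% interval -0.15 to 0.80, adjusted p = 0.603) and -0.11 ± 0.22 for FoxO1 deleted against wild type (adjusted p = 0.923). FoxO1 deleted minus wild type was -0.55 among arrays of low Xist signal, with 1 FoxO1 deleted array, and 0.24 among those of high Xist signal. Active β-catenin minus wild type was 0.08 among arrays of low Xist signal. Leaving out single arrays moved it to 0.083 without active β-catenin 1, 0.54 without active β-catenin 2 and 0.21 without wild type 3, and it passed the test in none of the 10 such fits.

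Crabp1, one of the cytosolic carriers of retinoic acid, had its lowest mean with FoxO1 deleted. It read 6.88, 8.63 and 7.84 with active β-catenin, 6.91, 6.57 and 5.92 in FoxO1 deleted arrays, and 8.06, 7.83, 8.08 and 7.91 in wild type. The 3 FoxO1 deleted arrays lay below every wild-type array, and active β-catenin spread across both. The means were 7.78 ± 0.88 with active β-catenin, 6.47 ± 0.50 with FoxO1 deleted and 7.97 ± 0.12 in wild type (SD). FoxO1 deleted differed from wild type by -1.50 ± 0.36 (SE, log2, 95% interval -2.29 to -0.71), which ranked 43 of 11357 genes by p. It did not pass the test over all genes (unadjusted p = 0.00151, adjusted p = 0.379), and all 3 FoxO1 deleted values are below the table's median, where signal is imprecise.

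Leaving out 1 array at a time kept the Crabp1 difference for FoxO1 deleted against wild type between -1.73 and -1.23, with adjusted p from 0.162 to 0.868. It was -1.04 among arrays of low Xist signal, with 1 FoxO1 deleted array, and -1.75 among those of high Xist signal. Tubb3, the only 1 of 6 listed neural markers to pass the filter, was also lower in all FoxO1 deleted arrays than in wild type. It read 7.17, 6.59 and 5.97 in FoxO1 deleted arrays, against 8.47, 8.65, 7.77 and 7.63 in wild type. With active β-catenin it read 8.16, 6.47 and 6.81, so low values were not particular to FoxO1 deleted. Arrays 2 and 3 of both altered genotypes were below the table's median of 7.15. The chondrocyte markers given above also lay higher in FoxO1 deleted than in wild type. The part of these markers in the Crabp1 values was not tested. Active β-catenin differed from FoxO1 deleted by 1.32 ± 0.39 in Crabp1 (adjusted p = 0.282). Leaving out 1 array at a time moved this between 0.89 without active β-catenin 2 (adjusted p = 0.605) and 1.77 without active β-catenin 1 (adjusted p = 0.0469), the only one of the 10 such fits in which it passed.

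Crabp2, the carrier known for passing retinoic acid to RAR receptors, read 7.82, 8.38 and 8.16 with active β-catenin, 8.28, 8.32 and 8.60 in FoxO1 deleted arrays, and 8.50, 8.63, 8.64 and 8.78 in wild type. All active β-catenin arrays were below all wild-type arrays, and FoxO1 deleted overlapped both. The means were 8.12 ± 0.28 with active β-catenin, 8.40 ± 0.17 with FoxO1 deleted and 8.64 ± 0.11 in wild type (SD). The difference was -0.52 ± 0.15 for active β-catenin against wild type (SE, log2, 95% interval -0.85 to -0.18, unadjusted p = 0.00602, adjusted p = 0.166), which did not pass the test. For FoxO1 deleted against wild type it was -0.24 (adjusted p = 0.717).

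The receptors Rarb and Rarg had the smallest differences of the 8 genes for active β-catenin against wild type. Rarb, which retinoic acid itself is known to induce, read 8.12, 8.50 and 8.42 with active β-catenin, 8.61, 8.27 and 8.64 in FoxO1 deleted arrays, and 8.22, 8.20, 8.68 and 8.44 in wild type. The groups overlapped throughout, at -0.04 for active β-catenin against wild type (95% interval -0.40 to 0.32, adjusted p = 0.958) and 0.12 for FoxO1 deleted against wild type (95% interval -0.24 to 0.48, adjusted p = 0.879). The window of its promoter printed above holds the spaced repeat.

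Rarg, the receptor prominent in mouse cartilage, read 9.65, 9.29 and 9.47 with active β-catenin, 9.52, 9.82 and 9.32 in FoxO1 deleted arrays, and 9.57, 9.36, 9.51 and 9.39 in wild type on probe set 1419415_a_at. The groups overlapped throughout. The difference was 0.01 for active β-catenin against wild type (log2, 95% interval -0.28 to 0.30, adjusted p = 0.986) and 0.10 for FoxO1 deleted against wild type (adjusted p = 0.880). Its dimmer probe set, 1419416_a_at, differed by -0.21 for active β-catenin and -0.12 for FoxO1 deleted against wild type, and neither passed the test. Rara, the most widely expressed of the RAR genes in mouse, has 1 probe set here. Its values were 6.33, 4.06 and 7.06 with active β-catenin, 6.16, 6.56 and 3.77 in FoxO1 deleted arrays, and 4.72, 6.0, 4.50 and 4.62 in wild type. All 10 are below the table's median, and nothing was drawn from their order.

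Counted as a group, 0 of the 7 genes other than Aldh1a3 passed the test in active β-catenin against wild type, where 0.784% of all 11357 genes did. Of these 7 genes, 2 had an unadjusted limma p under 0.05, Aldh1a2 and Crabp2, as did 12.1% of all genes. The only one of the 7 without overlap was Crabp2, on the lower side, where 6.76% of all genes had none. Their median difference was -0.04, with 3 positive and 4 negative, beside a median of 0.005 over all genes. For Aldh1a3, chosen on this contrast, no call is given. Over all genes, 0.599% were called higher and 7.27% had no overlap on the higher side.

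In FoxO1 deleted against wild type, 0 of the 8 genes passed the test in limma, where 0.0264% of all genes did, and 2 had an unadjusted p under 0.05, Aldh1a1 and Crabp1, beside 7.83% of all genes. Crabp1 was the only one without overlap, on the lower side, as were 4.44% of all genes. In active β-catenin against FoxO1 deleted, 0 of the 7 genes other than Aldh1a3 passed (0.669% of all genes), and 1, Crabp1, had an unadjusted p under 0.05 (8.03% of all genes). Aldh1a3 itself had no overlap there, on the higher side, as did 5.39% of all genes, and that too follows from the choice. The remaining 6 differences ran from -0.28 for Crabp2 (adjusted p = 0.732) to 0.43 for Cyp26b1 (adjusted p = 0.700). These comparisons share arrays and are not independent of each other.

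**Figure D3:**
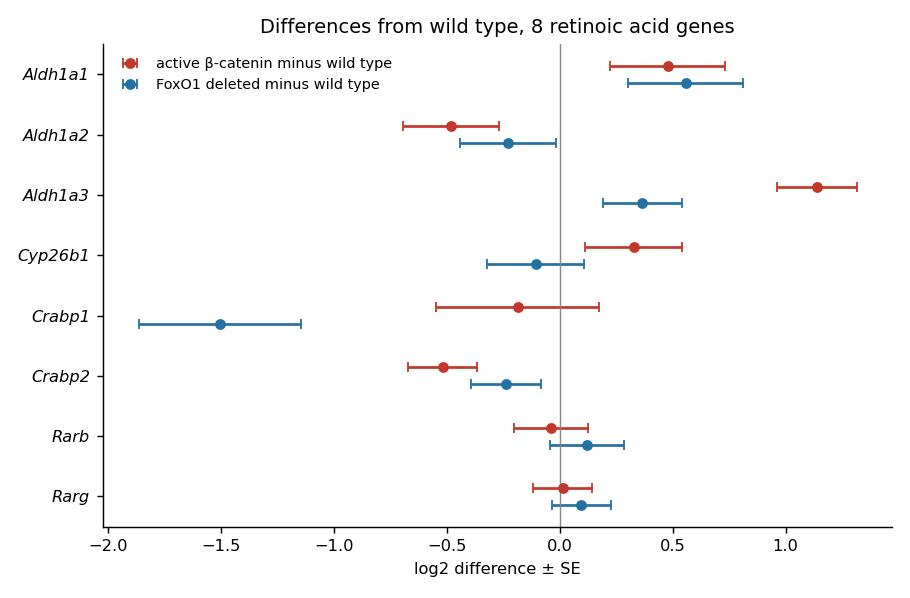
Log2 difference ± SE of the 8 tested genes for active β-catenin minus wild type and FoxO1 deleted minus wild type, 1 row per gene. Aldh1a3 was chosen on the first of these contrasts, so its bar there is a description and no test. Aldh1a3 lies at 1.14 for active β-catenin and 0.37 for FoxO1 deleted, Crabp1 at -0.19 for active β-catenin and -1.50 for FoxO1 deleted, and Rarb and Rarg lie near 0.

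The wider retinoid pathway was read from 6 lists, which held 48 tested genes beside the 9 above. Of the 48, 10 are other aldehyde dehydrogenases, which act mostly on other aldehydes. In active β-catenin against wild type, 1 of the 48 rose and 0 fell in limma, beside 0.784% of all genes called, and 5 had an unadjusted p under 0.05, beside 12.1% of all genes. In FoxO1 deleted against wild type 0 passed the test, beside 0.0264% of all genes, and 2 had an unadjusted p under 0.05, beside 7.83% of all genes. In active β-catenin against FoxO1 deleted 1 was higher, beside 0.581% of all genes called higher. The gene was Cyp1b1 both times. The median difference over the 48 genes was 0.02 for active β-catenin and -0.01 for FoxO1 deleted against wild type.

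Cyp1b1 was listed with retinoic acid degradation, but its enzyme is better known, in human, for oxidising steroids and for turning retinol into retinal. It read 10.62, 9.91 and 9.64 with active β-catenin, 8.70, 8.41 and 9.18 in FoxO1 deleted arrays, and 8.48, 8.17, 8.47 and 8.17 in wild type. All active β-catenin arrays were above all others, as were the fibroblast, smooth muscle and endothelial markers given above, whose part in the Cyp1b1 values was not tested. The gene rose 3.33-fold with active β-catenin against wild type (log2 1.73, adjusted p = 0.00633) and was 1.29 higher on the log2 scale than with FoxO1 deleted (adjusted p = 0.0467). The first call was lost with the replicate number as a block (adjusted p = 0.0655), with Xist signal as a term (0.0579) and with the similar wild-type arrays averaged (0.124). It held on leaving out each array in turn. The second was lost on leaving out any 1 array except FoxO1 deleted 3, with adjusted p between 0.0387 and 0.164, and in 8 of 10 other settings, with adjusted p up to 0.346.

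Among enzymes of the earlier step, Rdh10, the retinol dehydrogenase that supplies most embryonic retinal in mouse, read 9.17, 9.43 and 10.03 with active β-catenin, 8.91, 9.15 and 8.71 in FoxO1 deleted arrays, and 9.13, 8.99, 9.04 and 8.99 in wild type. Active β-catenin lay above wild type without overlap, as in 7.27% of all genes, and the difference of 0.51 did not pass the test (adjusted p = 0.264). Dhrs3, which turns retinal back into retinol, differed by 0.10 from wild type in either genotype. None of the 11 tested genes of that list passed in either comparison with wild type. Of all genes, 0.784% (active β-catenin) and 0.0264% (FoxO1 deleted) passed. A lack of calls therefore does not set this list or the short lists below apart. Of the 6 uptake and storage genes none passed, and Rbp7, a retinol-binding protein, differed by 0.57 with active β-catenin (adjusted p = 0.614) and -0.74 with FoxO1 deleted (adjusted p = 0.651) against wild type.

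Of 11 receptor partners and co-regulators none passed the test. Fabp5, a carrier that can bring retinoic acid to another nuclear receptor, PPARδ, read 12.63, 12.67 and 12.53 with active β-catenin, 13.32, 13.11 and 12.82 in FoxO1 deleted arrays, and 12.73, 12.68, 12.72 and 12.73 in wild type. FoxO1 deleted lay above wild type and active β-catenin below it, by 0.37 (adjusted p = 0.431) and -0.11 (adjusted p = 0.756) on the log2 scale. The wild-type arrays spread little (SD 0.02). For active β-catenin, 6.76% of all genes had no overlap with wild type on the lower side. Rxra, an RXR partner, differed from wild type by 0.02 in active β-catenin and 0.25 in FoxO1 deleted. Of 12 tested genes known to respond to retinoic acid, Rarb and Crabp2 among them, none passed against wild type. Beside Crabp2, the genes of this list with the largest differences in either genotype were Tbx1 and Tgm2, and both overlapped wild type. Tbx1, a transcription factor of the pharyngeal region, differed by -0.57 with active β-catenin (adjusted p = 0.627 in limma) and with FoxO1 deleted (adjusted p = 0.736). It read 5.58, 7.41 and 6.77 with active β-catenin, and all its FoxO1 deleted values were below the table's median. Tgm2, a transglutaminase, differed by 0.47 in FoxO1 deleted (adjusted p = 0.651). It read 11.21, 11.2 and 12.32 there, against 10.95 to 11.27 in wild type, so only FoxO1 deleted 3 lay above the wild-type arrays.

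**Figure D4:**
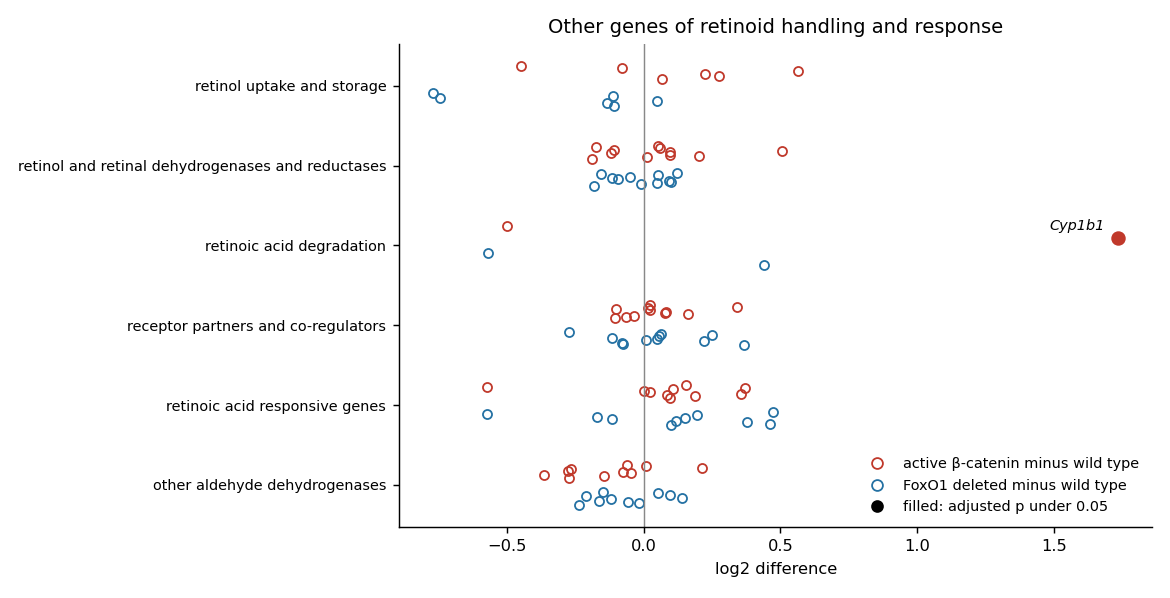
Log2 difference of each tested gene of 6 retinoid lists for active β-catenin minus wild type and FoxO1 deleted minus wild type, with filled dots for an adjusted p under 0.05. Cyp1b1 with active β-catenin, at 1.73, is the only filled dot, and the other genes lie within 1 log2 unit of wild type.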

How the data were processed

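The authors deposited 1 table of log2 signal for 45101 probe sets on 10 arrays. The signal was made with MAS5, per the submitters' processing notes, with no version given. Each array was hybridised with biotinylated cRNA prepared from 500 ng of RNA, per the labels' protocols. The deposited log2 values run from -3.86 to 15.86 with no floor, and they were used without further normalization. Columns that could not be tied to a sample numbered 0.

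Probe sets were named by the platform annotation: 34958 had 1 gene, 932 several and 9211 none listed. A probe set was kept if its third-highest value lay above the table's median, 7.15, and where a gene had several, the one of highest mean over all arrays stood for it. Probe sets differ in affinity, so levels were not compared between genes. The number of arrays limits the precision.

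All 10 arrays entered 1 fit of genotype in limma 3.58.1 (R 4.3.3), with eBayes and a mean-variance trend, two-sided, 7 residual degrees of freedom, and Benjamini-Hochberg adjustment over 11357 genes at 0.05. The script was tested on simulated data. "No overlap" means every array of one group lies on one side of the other group.

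The 9 genes, the retinoid lists and the marker lists were chosen with earlier results of these data known. Named besides the 9 are list genes that passed the test, up to 4 more per list with the largest differences, the 5 genes most like Aldh1a3 by Pearson correlation, and Ctnnb1, Foxo1 and Xist. Dhrs3 and the markers Thy1, S100a4 and Tubb3 were added after their values were seen. Replicate numbers did not pair the samples.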

Additional observations from a re-analysis of the deposited data

Results flagged for a closer look

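Of the 12 probe sets, 2 had 1 wild-type array far from the other 3, and chance alone flags about 1 in 20 groups. Aldh1a3 probe set 1427395_a_at read 6.73 in wild type 2, against 5.50 to 5.58 in the other wild-type arrays. The Rara probe set 1450180_a_at read 6.0 in wild type 2, against 4.50 to 4.72 in the other wild-type arrays. All of these values are below the table's median of 7.15.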

How the results depend on the processing

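The genes called over the whole table were 89 for active β-catenin against wild type, 3 for FoxO1 deleted against wild type and 76 for active β-catenin against FoxO1 deleted. In that order they became 15, 0 and 22 with the replicate number as a block, although same-numbered samples did not deviate together (r between -0.29 and 0.29). With Xist signal as a term the comparisons of active β-catenin became 10 (against wild type) and 6. With similar wild-type arrays averaged they became 9, 0 and 49, and with the 6 arrays of low Xist signal alone, chosen after seeing the data, 175, 96 and 12, FoxO1 deleted then resting on 1 array assumed to vary like the others. Quantile normalization and no trend each gave 5 for FoxO1 deleted against wild type. At an unadjusted limma p under 0.05 the settings with 0 calls held 635 (block) and 345 genes (averaged). Leaving out 1 array gave 31 to 130, 0 to 7 and 29 to 62 calls. Active β-catenin against wild type fell to 31, 32, 45 and 35 without wild type 1, 2, 3 and 4, and to 40 without active β-catenin 1 or 3. FoxO1 deleted against wild type became 1 without wild type 1, 7 without FoxO1 deleted 2 and 0 without FoxO1 deleted 1 or 3 (1043 and 799 genes unadjusted). Active β-catenin against FoxO1 deleted became 45 and 30 without active β-catenin 2 and 3, and 29 without FoxO1 deleted 1. No call on a member was gained in these settings except Crabp1 without active β-catenin 1. Small uncalled differences changed sign. For active β-catenin against wild type, Rarb became 0.053 with the Xist term and 0.14 in the arrays of low Xist signal, and Rarg -0.01 with the block. For active β-catenin against FoxO1 deleted, Aldh1a1 became 0.14 with the Xist term. On leaving out 1 array, active β-catenin against wild type ran from -0.61 to 0.27 for Crabp1, -0.12 to 0.075 for Rarb and -0.078 to 0.10 for Rarg. FoxO1 deleted against wild type ran from -0.22 to 0.0067 for Cyp26b1 and -0.038 to 0.21 for Rarg. Active β-catenin against FoxO1 deleted ran from -0.34 to 0.10 for Aldh1a1 and -0.20 to 0.05 for Rarg. The cause of these changes was not tested. Signal under the table's median limits Crabp1, Rara and the dimmer Aldh1a3 probe sets.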

Other observations

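The other aldehyde dehydrogenases are relatives of the ALDH1A enzymes that act mostly on other aldehydes. Of 10 tested, 0 passed the limma test against wild type in either genotype. Of all genes, 0.784% passed for active β-catenin and 0.0264% for FoxO1 deleted, so a lack of calls does not set this list apart. An unadjusted p under 0.05 was found for 2 of the 10 in active β-catenin, beside 12.1% of all genes. It was found for none in FoxO1 deleted, beside 7.83% of all genes. There were 2 positive differences for active β-catenin and 3 for FoxO1 deleted, and median differences of -0.11 and -0.09 (log2). The largest with active β-catenin was Aldh1l2, a mitochondrial enzyme of folate metabolism, at -0.37 against wild type (adjusted p = 0.250). Aldh3b1, Aldh16a1 and Aldh5a1 followed at -0.28 (adjusted p = 0.852), -0.27 (adjusted p = 0.577) and -0.27 (adjusted p = 0.778).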
